A study of Mus musculus with 8 samples.

Results

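The genes described here encode the proteins of the cytosolic ribosome and of the mitochondrial ribosome. They were chosen by symbol: Rpl or Rps followed by a number (and a paralog letter in some), with Rplp0, Rplp1, Rplp2 and Rpsa, for the cytosolic ribosome, and Mrpl or Mrps followed by a number for the mitochondrial one. Of the 22597 genes in the table, 162 met this rule, 84 cytosolic and 78 mitochondrial. After a filter on low counts, 81 cytosolic and all 78 mitochondrial genes were among the 12750 genes tested. The 3 left out were the paralogs Rpl10l, Rpl39l and Rpl3l. Rpl10l had 0 counts in every library, which allows up to 3 counts, or 0.0797 to 0.192 CPM (counts scaled to an equal library total, by TMM for single genes). Rpl39l reached at most 0.357 CPM and Rpl3l at most 0.255 CPM.

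Cytosolic ribosomes translate messages of the nucleus and consist of a large subunit, whose proteins are named Rpl and Rplp, and a small subunit, whose proteins are named Rps and Rpsa. Their messages are abundant, typically begin with a C followed by a run of pyrimidines (a 5′ terminal oligopyrimidine tract), and are translated under control of mTORC1. Mitochondrial ribosomes translate the few messages of the mitochondrial genome, which encode subunits of the respiratory chain and of ATP synthase. All of their proteins, named Mrpl and Mrps for the large and the small subunit, are encoded in the nucleus and imported.

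Polyadenylated RNA was measured in interstitial macrophages, the macrophages of the lung connective tissue and not of the alveolar lumen, sorted from mice with refilled macrophage niches. The CD45.1/CD45.2 recipients carried the toxin receptor DTR under Cx3cr1 (IMDTR) in both groups, so diphtheria toxin (DT) could delete their own Cx3cr1-expressing cells. They were irradiated with the thorax shielded and given CD45.2 marrow, either of Tgfbr2 fl/fl donors (WT) or of Lyz2Cre Tgfbr2 fl/fl donors (Tgfbr2_KO, libraries KO 1 to 4). They received 50 ng of DT 1 month later, and cells were taken 10 days after that. Lyz2Cre acts in myeloid cells, and only the Tgfbr2_KO donors carried Cre, so effects of Cre and of the loss of the type II TGF-β receptor cannot be told apart. Mice were female C57BL/6, 12 to 16 weeks old by one label and 18 weeks by the treatment text. There were 4 libraries per genotype. The labels do not say that a library stands for 1 mouse; p-values therefore measure variation among these libraries only, and that variation may be technical.

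Estimated counts summed to between 15597310 and 37654133 per library. Tgfbr2 itself was at 474 to 548 CPM in WT and 424 to 576 CPM in Tgfbr2_KO. These are totals over the whole gene, and no source used here gives the deleted exons, so they do not check the genotype. Lyz2, which carries Cre, was at 7285 to 13193 CPM in WT and 3440 to 5611 CPM in Tgfbr2_KO, with no overlap. WT 1, WT 2 and KO 1 stood apart and are called lung-rich. Markers of lung epithelium held 0.393%, 0.337% and 0.635% of their counts, against 0.0156% to 0.0235% in the other 5 libraries. Markers of endothelium held 0.287% to 0.581% against 0.0263% to 0.0338%. Of the tested markers, 9 of 10 for epithelium, 10 of 10 for endothelium and 8 of 9 for fibroblasts were higher in each lung-rich library than in each other library, against 28.1% of all tested genes. Markers of interstitial macrophages held 1.35% to 1.92% in the lung-rich libraries and 2.47% to 2.59% in the others, and 9 of 10 were lower without overlap, against 23.1% of all tested genes. The sets are not groups of the study and were defined from earlier results of these libraries, so results for both classes are given over 8 libraries, with the set as a term and within the sets.

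Cytosolic ribosomal protein messages were far more abundant than mitochondrial ones. The levels here are per length, that is counts per kilobase of the longest principal transcript, scaled as in TPM, as the mean of the WT libraries. The median was 992 over the 81 cytosolic genes, 20.2 over the 78 mitochondrial genes and 17.3 over all tested genes with a length. The highest cytosolic level per length was that of Rpl10 (2511), a large-subunit protein that joins late in assembly. The lowest was that of Rpl7l1 (41.1), a paralog of Rpl7. Among mitochondrial genes the range ran from 132 for Mrpl33 to 3.17 for Mrpl47. The transcripts were short, with a median of 886 bp for cytosolic and 1302 bp for mitochondrial genes, against 3028 bp over all tested genes.

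The summed share of the cytosolic genes was lower in Tgfbr2_KO than in WT within each library set, and the library sets differed by more than the genotypes. Cytosolic genes held 3.09%, 3.08%, 3.65% and 3.70% of all counts in WT 1 to 4 and 2.63%, 3.32%, 3.27% and 3.39% in KO 1 to 4. KO 1 was the lowest of all libraries, WT 3 and WT 4 were the highest, and over 8 libraries the genotypes overlapped, with the mean of Tgfbr2_KO at 93.3% of that of WT. Within the lung-rich set KO 1 was at 85.4% of the WT mean, and within the other 5 libraries the KO mean was at 90.5% of the WT mean, without overlap in either set. The large and the small subunit moved together: the counts of Rpl and Rplp genes were 1.41 to 1.45 times those of Rps genes and Rpsa in every library. As these are bulk samples, fewer cells of a type and less RNA per cell cannot be told apart.

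Mitochondrial genes held 0.116%, 0.114%, 0.117% and 0.116% of the counts in WT 1 to 4 and 0.120%, 0.110%, 0.105% and 0.109% in KO 1 to 4. By this share KO 1 was the highest library and KO 2 to KO 4 were the lowest. The KO share was at 104% of the WT mean in the lung-rich set and at 92.7% in the other 5 libraries. This order depended on the scaling. On TMM-scaled CPM the sums were 1066, 1074, 1233 and 1233 in WT 1 to WT 4 and 1075, 1157, 1103 and 1144 in KO 1 to KO 4. KO 1 was then level with WT 1 and WT 2, at 100.4% of their mean, all 3 lung-rich libraries were below the other 5, and the KO mean of the other 5 libraries was at 92.1% of WT. For the cytosolic sum, KO was below WT within each set on both scales. On TMM-scaled CPM it was at 82.2% of WT in the lung-rich set and 89.9% in the other 5.

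**Figure D1:**
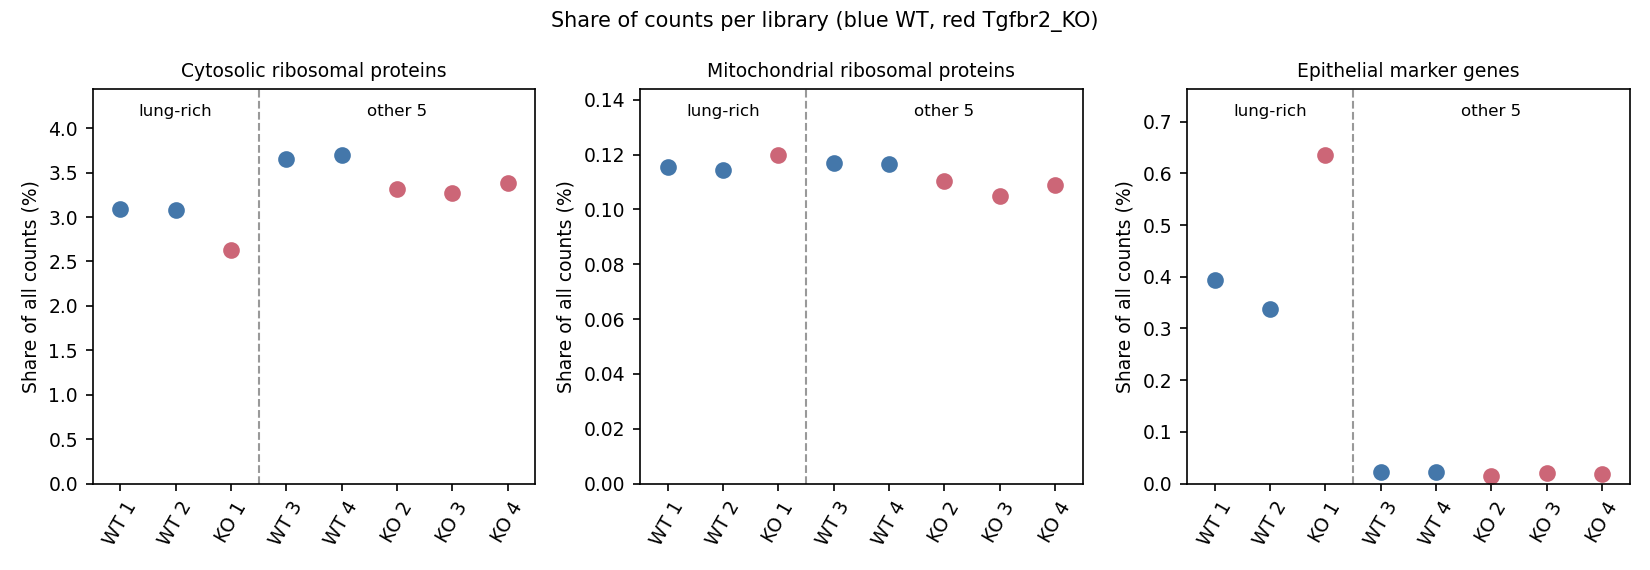
Share of all counts (%, y axis) held in each library (x axis) by cytosolic ribosomal protein genes, mitochondrial ribosomal protein genes and 10 epithelial marker genes, with 1 point per library and the lung-rich set left of the dashed line. KO 1 has the lowest cytosolic share (2.63%), the highest mitochondrial share (0.120%, an order that did not hold on TMM-scaled CPM) and the highest epithelial share (0.635%).

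Over 8 libraries no ribosomal protein gene passed the test between genotypes. With edgeR's quasi-likelihood test and Benjamini-Hochberg adjustment over 12750 genes, 0 of 81 cytosolic and 0 of 78 mitochondrial genes were below 0.05 in either direction. Over all genes tested, 0.196% were called higher and 0.102% lower in Tgfbr2_KO. At an unadjusted p under 0.05, no cytosolic gene passed, while 5 mitochondrial genes were lower and 1 was higher, against 3.84% and 6.57% of all genes. DESeq2 and limma-voom also called 0 genes in both classes. The median log2 difference was -0.08 for cytosolic, -0.04 for mitochondrial and -0.01 for all tested genes, and 74 of the 81 cytosolic differences were below 0, against 52% of all genes. In this fit, which has no term for the library set, the direction depended on which libraries were included. WT holds 2 lung-rich libraries and Tgfbr2_KO holds 1, so leaving out a library changes that balance. With the set as a term, 77 of 81 cytosolic differences were below 0 without KO 1, 80 without WT 3 and 81 without WT 4. The values that follow are from the fit without that term. Without KO 1, the library with the highest epithelial and endothelial shares, 18 of 81 cytosolic differences were below 0 and the median was 0.03, and without WT 3 or without WT 4 the numbers below 0 were 46 and 44, each with a median of -0.01. No cytosolic gene had genotypes that did not overlap over 8 libraries. Mrpl12, Mrpl15, Mrpl41 and Mrps16 were lower in every KO library than in every WT library (4 of 78 mitochondrial genes, against 2.71% of all genes).

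Within the 5 libraries that were poor in lung transcripts, most cytosolic genes fell by a small and similar amount. In the edgeR fit of WT 3 and WT 4 against KO 2, KO 3 and KO 4, 67 of 81 cytosolic genes were called lower and 0 higher, against 18.7% and 19.7% of the 12624 genes tested. All but 4 of the differences, 77 of 81, were below 0, against 50.4% of all genes. The median log2 difference was -0.17, with an interquartile range of 0.10, against a median of -0.00 and an interquartile range of 0.38 over all genes. The 3 KO libraries lay below both WT libraries for 70 of 81 cytosolic genes, against 30.2% of all genes. Both subunits took part, with a median of -0.17 for 49 large-subunit genes and -0.15 for 32 small-subunit genes. Epithelial markers held less in the KO than in the WT libraries of this set (0.0156% to 0.0208% against 0.0234% to 0.0235%), and interstitial macrophage markers held 2.49% to 2.59% against 2.47% to 2.48%. Endothelial markers held 0.0263% to 0.0294% in KO against 0.0335% to 0.0338% in WT, neutrophil markers 0.0139% to 0.0151% against 0.0204% to 0.0209%, and dendritic cell markers 0.0103% to 0.0109% against 0.0065%, all without overlap. Alveolar macrophage markers held 0.0204% to 0.0233% in KO against 0.0638% to 0.0645% in WT, and markers of cycling cells 0.0569% to 0.0660% against 0.0468% to 0.0482%. In the fit with a term for the set, 4 of 8 tested alveolar macrophage markers were called lower and 1 higher, 2 of 9 neutrophil markers lower and 0 higher, 0 of 8 dendritic cell markers lower and 1 higher, and 0 of 10 cycling markers lower and 3 higher, against 7.89% lower and 8.59% higher of all genes. Lymphocyte markers held 0.00150% to 0.00161% in KO against 0.00112% to 0.00147% in WT. Of the 4 tested, 2 were called higher and 0 lower in the fit with a term for the set. None of these markers was at 0 in every library. Their part in the result was not tested. WT 3 and WT 4 were very close: relative to counting noise the median chi-square of their counts was 1.87, where it was 2.06 to 3.07 among KO 2 to KO 4 and 4.41 between the lung-rich WT libraries. Summed into 1 library they left 58 cytosolic genes called lower, and leaving out any 1 library left 50 to 67.

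Mitochondrial genes of the same 5 libraries also lay mostly below 0, but with a wider spread and fewer calls. In this fit 14 of 78 were called lower and 1 higher, shares of 17.9% and 1.28% that stand beside 18.7% and 19.7% of all genes. The median log2 difference was -0.14, with an interquartile range of 0.24. Of the 78 differences, 62 were below 0 (79.5%), against 50.4% of all genes. The KO libraries were below both WT libraries for 33 genes and above both for 5, against 30.2% and 29% of all genes. Large-subunit genes had a median of -0.16 and small-subunit genes of -0.08. Listed after their values were seen, the 14 were Mrpl9, Mrpl12, Mrpl15, Mrpl20, Mrpl30, Mrpl32, Mrpl38, Mrpl43, Mrpl46, Mrpl52, Mrpl58, Mrps2, Mrps16 and Mrps23, and the gene that rose was Mrpl42. The count fell to 7 without WT 3, to 5 without WT 4, to 6 with these 2 libraries summed and to 8 with DESeq2.

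**Figure D2:**
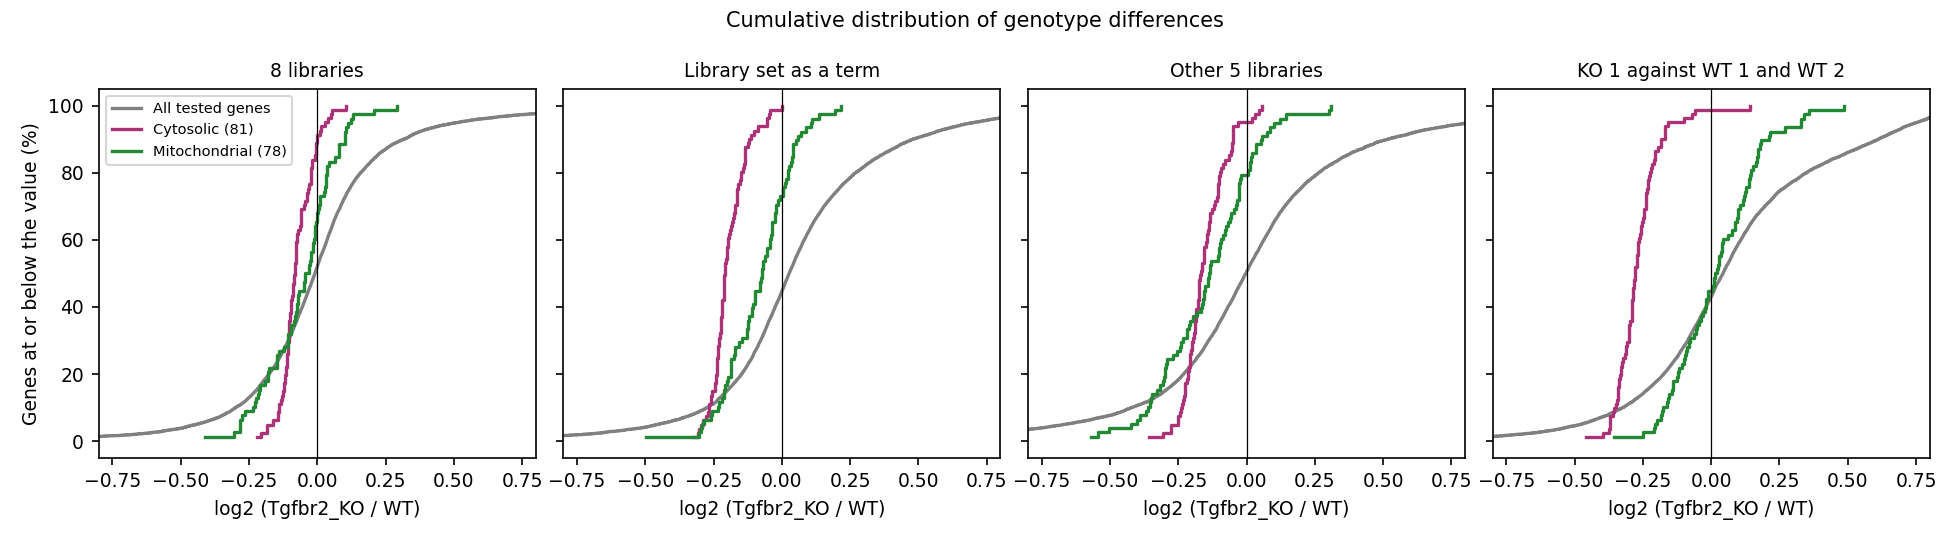
Cumulative share of genes (%, y axis) by log2 difference between Tgfbr2_KO and WT (x axis) in 4 comparisons, for all tested genes, 81 cytosolic and 78 mitochondrial ribosomal protein genes; values beyond the axis range are not drawn. The cytosolic curve is steep and most of it lies left of 0 in each panel, with medians of -0.08, -0.21, -0.17 and -0.28.

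When the library set was a term in the fit of all 8 libraries, 54 of 81 cytosolic genes were called lower and 0 higher, against 7.89% and 8.59% of all genes. The median log2 difference was -0.21, against 0.03 over all genes. The number of calls depended on single libraries. It was 6 without WT 3, 6 without WT 4, 19 without KO 2, 16 without KO 3 and 21 without KO 4, and 9 with WT 3 and WT 4 summed, while the median lay between -0.23 and -0.25 in these fits. Mrpl52, Mrpl12 and Mrpl15 were the 3 mitochondrial genes called lower, and none was called higher. The count of 3 became 1 without WT 3, without WT 4 or with both summed, and 11 without KO 1.

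In the lung-rich set, which holds a single KO library and was described by values without a test within it, the cytosolic genes were lower again. KO 1 was below both WT 1 and WT 2 for 79 of 81 cytosolic genes, against 32.8% of all genes. The exceptions were Rpl7l1, which lay between the WT libraries, and Rps27l, which lay above them. The median log2 difference, on log2(CPM + 0.5), was -0.28 for cytosolic and 0.02 for mitochondrial genes, against 0.04 over all genes. Of the mitochondrial genes, 26 were below and 30 above both WT libraries, against 32.8% and 46.4% of all genes. Lower without overlap in both sets were 69 cytosolic genes and 9 mitochondrial ones (Mrpl12, Mrpl15, Mrpl27, Mrpl41, Mrpl50, Mrpl52, Mrps2, Mrps9 and Mrps16), against 13.6% of all genes. Higher in both sets were no cytosolic gene and, among mitochondrial genes, Mrpl42 and Mrpl48, against 14.8%. KO 1 also held more epithelial (0.635% against 0.337% and 0.393%) and endothelial transcripts (0.581% against 0.287% and 0.377%) and fewer macrophage marker transcripts (1.35% against 1.84% and 1.92%) than the WT libraries of its set; their part in the result was not tested.

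Apart from genotype, 80 of 81 cytosolic genes were called lower in the lung-rich than in the other libraries (edgeR, set coefficient, against 27.6% of all genes), with a median log2 difference of -0.48. Rpl7l1 was the exception, with a log2 difference of 0.07 (edgeR adjusted p = 0.381). Among mitochondrial genes 18 were called lower and 3 higher (Mrpl44, Mrpl49 and Mrpl53), against 27.6% and 30.9% of all genes, with a median of -0.14.

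**Figure D3:**
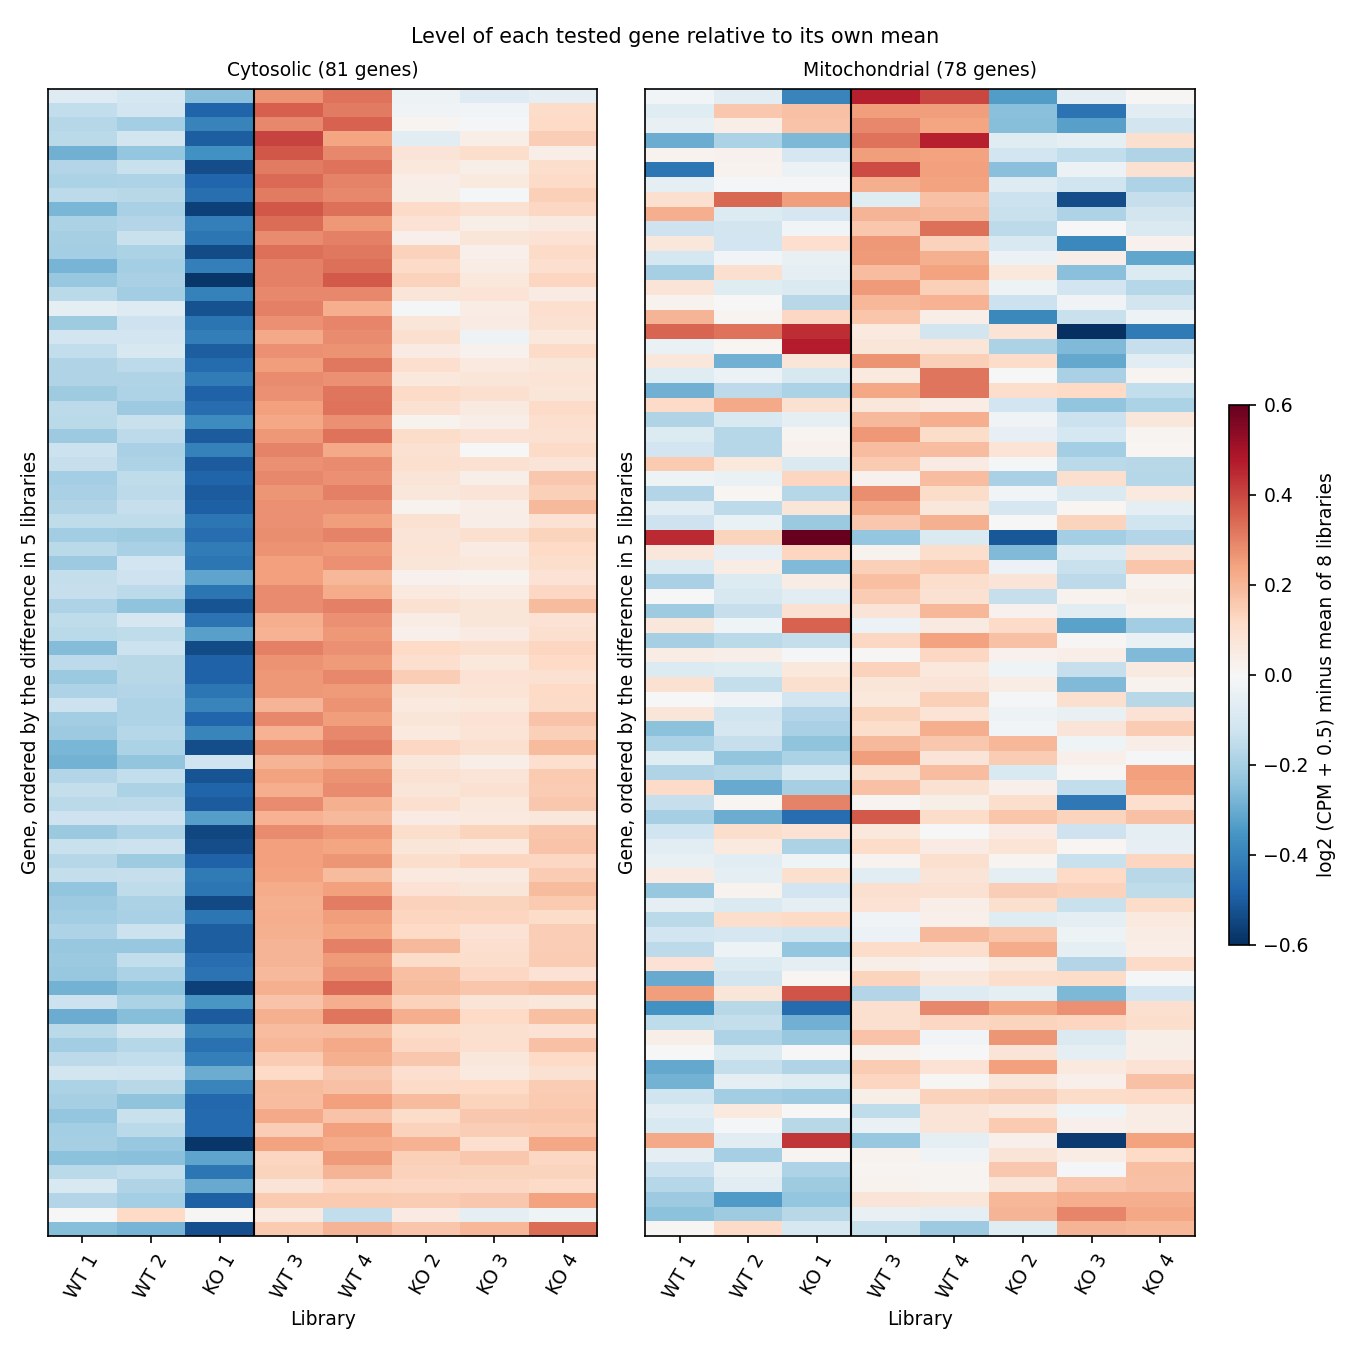
Level of each tested gene (1 line each, ordered by its difference in the 5 libraries) in each library (x axis), as log2(CPM + 0.5) minus the mean of 8 libraries for that gene (colour), with the lung-rich set left of the black line. KO 1 is the lowest library for 79 of 81 cytosolic genes and WT 3 or WT 4 the highest for 78, whereas KO 1 is lowest for 17 of 78 mitochondrial genes.

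Of the large-subunit stalk, which recruits translation factors to the ribosome, Rplp2 and Rplp0 fell and Rplp1 was not called. Rplp2 (ENSMUSG00000025508, chr7:141447370-141451585, plus strand) was at 265, 271, 376 and 364 CPM in WT 1 to WT 4 and 211, 289, 290.3 and 317 CPM in KO 1 to KO 4. Each KO library was below both WT libraries of its set, and the lung-rich WT libraries were below KO 2 to KO 4. The log2 difference of Rplp2 was -0.31 (SE 0.04, edgeR adjusted p = 7.56e-06) in 5 libraries and -0.21 (SE 0.18, edgeR adjusted p = 0.897) over all 8, and the fit with the set as a term gave -0.32 (SE 0.05, edgeR adjusted p = 0.00506). Rplp0, the anchor of the stalk, was at 828, 848, 1197 and 1251 CPM in WT 1 to WT 4 and 648, 1065, 1014 and 1061 CPM in KO 1 to KO 4. It kept the same order of libraries, with a log2 difference of -0.22 (SE 0.03, edgeR adjusted p = 6.73e-06) in 5 libraries. Rplp1, the partner of Rplp2, was at 504, 494, 635 and 635 CPM in WT 1 to WT 4 and 405, 632, 636 and 674 CPM in KO 1 to KO 4. KO 1 was low within its set, but the genotypes overlapped in the other 5 libraries, where the log2 difference was 0.03 (SE 0.03, edgeR adjusted p = 0.492).

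Rpl3, a core protein near the peptidyl transferase center (ENSMUSG00000060036, chr15:80077791-80091868, minus strand), was at 684, 702, 958 and 968 CPM in WT 1 to WT 4 and 534, 805, 789 and 829.8 CPM in KO 1 to KO 4. All 3 KO libraries of the 5 lay below WT 3 and WT 4, and KO 1 lay below WT 1 and WT 2. Its log2 difference was -0.25 (SE 0.03, edgeR adjusted p = 9.23e-07) in 5 libraries and -0.16 (SE 0.19, edgeR adjusted p = 1.000) over 8. Rpl10 was at 784, 858, 1157 and 1136 CPM in WT 1 to WT 4 and 647, 1021, 1003 and 1027 CPM in KO 1 to KO 4. The same order held, with a log2 difference of -0.17 (SE 0.03, edgeR adjusted p = 4.41e-05) in 5 libraries. Rpl39, which lines the exit tunnel for the nascent chain, was at 118, 122, 175 and 156 CPM in WT 1 to WT 4 and 93.7, 127, 136 and 146 CPM in KO 1 to KO 4. Both WT libraries exceeded KO 2 to KO 4, and the log2 difference in 5 libraries was -0.28 (SE 0.07, edgeR adjusted p = 0.0210). The call on Rpl39 ended without WT 3 or without KO 3.

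Rpl22l1, a paralog of Rpl22, had the largest decrease of the cytosolic genes in 5 libraries. The paralogs, RNA-binding proteins of the large subunit, share 66.9% of coding bases, counted over the longer of the coding sequences. A stretch of both coding sequences of 60 bases, from GENCODE M21 transcripts, shows where their letters differ, with capitals at the 22 positions that differ.
Rpl22: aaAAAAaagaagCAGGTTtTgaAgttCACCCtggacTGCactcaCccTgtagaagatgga
Rpl22l1: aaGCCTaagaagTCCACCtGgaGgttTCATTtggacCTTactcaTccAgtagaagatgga
The stretch covers coding bases 37 to 96 of Rpl22 and 22 to 81 of Rpl22l1, and the longest identical run anywhere in the 2 transcripts is 26 bases. Rpl22l1 (ENSMUSG00000039221, chr3:28805436-28807424, plus strand) was at 30.1, 29.6, 38.5 and 39.97 CPM in WT 1 to WT 4 and 26.7, 31.2, 30.2 and 30.6 CPM in KO 1 to KO 4. KO 1 was the lowest library, and KO 2 to KO 4 were close to the lung-rich WT libraries and below WT 3 and WT 4. The log2 difference was -0.36 (SE 0.06, edgeR adjusted p = 1.23e-04) in 5 libraries and -0.22 (SE 0.12, edgeR adjusted p = 0.654) over all 8, and the fit with the set as a term gave -0.29 (SE 0.06, edgeR adjusted p = 0.0124). Rpl22 itself was at 167, 167, 210.2 and 208 CPM in WT 1 to WT 4 and 145, 189, 189.7 and 191 CPM in KO 1 to KO 4. It had the same order of libraries and a smaller difference of -0.14 (SE 0.03, edgeR adjusted p = 0.00260) in 5 libraries. Whether the paralogs differ from each other was not tested.

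Rpl36a and its paralog Rpl36al, which share 87.7% of coding bases, both fell in 5 libraries. Rpl36a was at 119.9, 117, 165 and 173 CPM in WT 1 to WT 4 and 102, 137, 135 and 147 CPM in KO 1 to KO 4. Rpl36al was at 61.5, 63.8, 97.5 and 91.7 CPM in WT 1 to WT 4 and 58.4, 79.2, 80.8 and 77.2 CPM in KO 1 to KO 4. For both, KO 2 to KO 4 lay below WT 3 and WT 4, with log2 differences of -0.28 (SE 0.04, edgeR adjusted p = 2.48e-05) and -0.25 (SE 0.04, edgeR adjusted p = 1.42e-04). Both had fractional counts in all 8 libraries, so some of their reads were divided among transcripts, and how these were assigned was not tested. Rpl7l1 was at 47.9, 51.9, 49.5 and 43.00 CPM in WT 1 to WT 4 and 47.9, 49.4, 45.8 and 46.9 CPM in KO 1 to KO 4. It was the one cytosolic gene with overlapping genotypes in both sets and no call between the sets, at 0.05 (SE 0.06, edgeR adjusted p = 0.609) in 5 libraries. Rpl7l1 turned to -0.062 without WT 4.

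Among small-subunit genes, Rps6, the substrate of S6 kinase downstream of mTORC1, fell in 5 libraries. Its start site shows the pyrimidine tract of these messages. The sequences of 30 bases run from 10 before to 20 after the annotated start (RefSeq, GRCm38.p6), and Rplp2 and Rps9 are shown beside Rps6. Capitals mark the pyrimidines from the C nearest the start that opens a run of at least 5, and further pyrimidines may stand directly before them.
Rps6: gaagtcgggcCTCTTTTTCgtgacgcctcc
Rplp2: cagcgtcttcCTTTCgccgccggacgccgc
Rps9: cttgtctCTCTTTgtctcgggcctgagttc
The windows lie at chr4:86857348-86857377, minus strand for Rps6, chr7:141447641-141447670, plus strand for Rplp2 and chr7:3704031-3704060, plus strand for Rps9. In Rps6 and Rplp2 the capitals begin at the annotated start itself, and in Rps9 they begin 3 bases before. Rps6 was at 504, 535, 708 and 717 CPM in WT 1 to WT 4 and 430.4, 614, 604 and 622 CPM in KO 1 to KO 4. KO libraries were below the WT libraries of their set, with a log2 difference of -0.21 (SE 0.03, edgeR adjusted p = 5.23e-06) in 5 libraries. Rps9, which lies at the entry channel of the message, was at 612, 647, 957 and 929 CPM in WT 1 to WT 4 and 501, 802, 788 and 805 CPM in KO 1 to KO 4. It showed the same order, with -0.24 (SE 0.03, edgeR adjusted p = 1.09e-06).

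Rpsa, also known as the laminin receptor, was at 708, 721, 992 and 1026 CPM in WT 1 to WT 4 and 585, 889, 877 and 861 CPM in KO 1 to KO 4. The KO libraries were lower within each set, with -0.20 (SE 0.03, edgeR adjusted p = 9.67e-06) in 5 libraries. Rps27a, made as a fusion with ubiquitin, was at 318, 321, 461 and 458 CPM in WT 1 to WT 4 and 253, 404, 374 and 397 CPM in KO 1 to KO 4. Its order was the same, with -0.23 (SE 0.03, edgeR adjusted p = 1.93e-05). Rps21, a protein of the small subunit, was at 126, 125, 162 and 153 CPM in WT 1 to WT 4 and 91.2, 130.4, 136 and 141 CPM in KO 1 to KO 4. Its KO 1 value stood lowest relative to WT 1 and WT 2, at a log2 difference of -0.46, and in 5 libraries the difference was -0.22 (SE 0.04, edgeR adjusted p = 3.60e-04).

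Of Rps27 and its paralog Rps27l, a p53 target, the former was not called and the latter was called by a narrow margin. Rps27 was at 267, 265, 313 and 321 CPM in WT 1 to WT 4 and 234, 308, 299 and 306 CPM in KO 1 to KO 4. WT 3 and WT 4 lay just above KO 2 to KO 4, and the difference of -0.06 (SE 0.03, edgeR adjusted p = 0.173) in 5 libraries was not called. Rps27 has a copy with an identical coding sequence, Rps27rt, at 30.1 to 45.4 CPM, and its counts were fractional in all libraries, so its level is uncertain. Rps27l was at 30.3, 31.2, 42.6 and 43.3 CPM in WT 1 to WT 4 and 33.99, 38.7, 37.9 and 39.6 CPM in KO 1 to KO 4. KO 1 lay above WT 1 and WT 2, at a log2 difference of 0.14, while KO 2 to KO 4 lay below WT 3 and WT 4, at -0.15 (SE 0.06, edgeR adjusted p = 0.0489). This call in 5 libraries ended under 9 of 10 other settings. The difference between the sets was not called (edgeR interaction adjusted p = 0.0582).

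Rps29 and Rps15, small-subunit proteins, were chosen after their values were seen, since together with Rplp1 and Rpl7l1 they are the 4 cytosolic genes with a difference above 0 in 5 libraries. Rps29 (ENSMUSG00000034892, chr12:69157722-69159186, minus strand) was at 349.7, 344, 466 and 481 CPM in WT 1 to WT 4 and 290.0, 469, 479 and 527 CPM in KO 1 to KO 4. KO 4 was the highest library, the genotypes overlapped in 5 libraries, and KO 1 was below WT 1 and WT 2. The log2 difference was 0.05 (SE 0.05, edgeR adjusted p = 0.393) in 5 libraries. Without KO 2, Rps29 was called higher (edgeR adjusted p = 0.0488; over all alternatives 0.0488 to 0.962). Rps15 was at 369, 348, 415 and 431 CPM in WT 1 to WT 4 and 319, 429.9, 429.6 and 427 CPM in KO 1 to KO 4. The 5 libraries overlapped, with 0.02 (SE 0.03, edgeR adjusted p = 0.624), and the value turned to -0.0076 without WT 3.

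**Figure D4:**
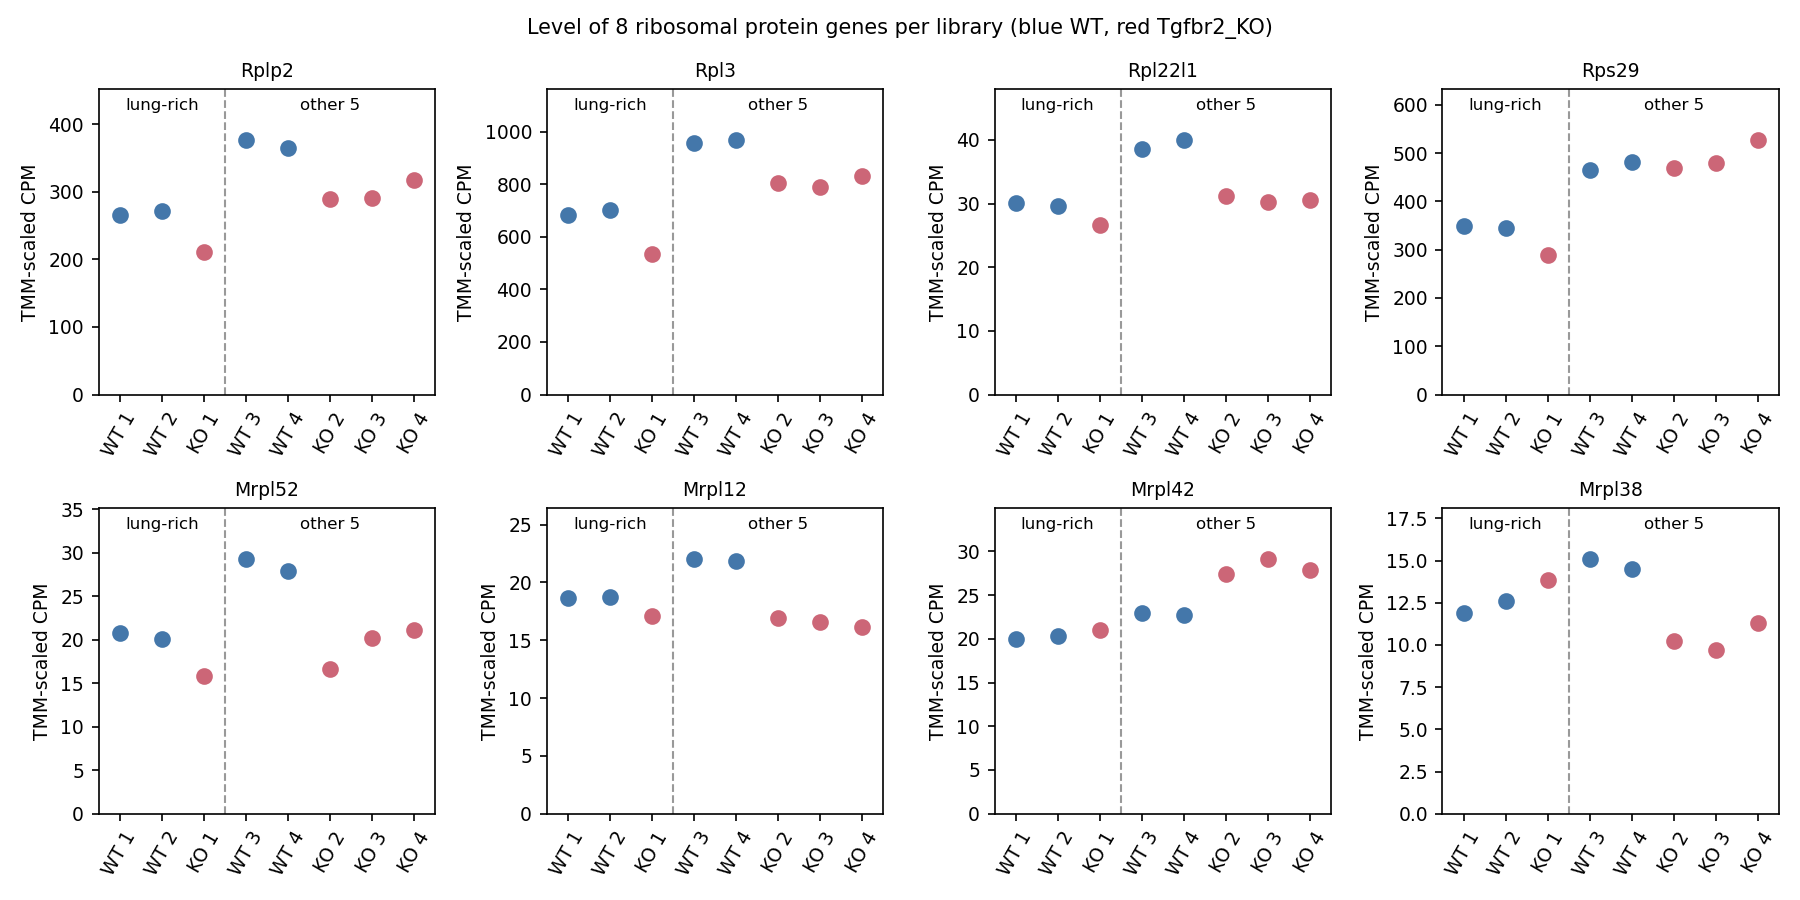
TMM-scaled CPM (y axis, from 0) in each library (x axis) for Rplp2, Rpl3, Rpl22l1, Rps29, Mrpl52, Mrpl12, Mrpl42 and Mrpl38, with 1 point per library, WT in blue, Tgfbr2_KO in red and the lung-rich set left of the dashed line. The KO libraries are below the WT libraries in both sets for Rplp2, Rpl3, Rpl22l1, Mrpl52 and Mrpl12, and above them in both sets for Mrpl42.

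Of the mitochondrial large subunit, Mrpl52 had the largest decrease. Its promoter holds the ETS-type motif CCGGAAG on the reverse strand, read as CTTCCGG in the direction of the gene. It is shown in capitals with those of the small-subunit gene Mrps16 and the large-subunit gene Mrpl48. Mrps16 was also lower in KO libraries. Mrpl48 was higher in KO than in WT libraries within both sets, as were 14.8% of all genes. Its log2 differences of 0.09 in 5 libraries and 0.11 with the set as a term were not called. Whether the motif has a part in these differences was not tested.
Mrpl52: tcaagatgtcggCTTCCGGttttcccggca
Mrps16: cttgggggcgctCTTCCGGgcttcaggctc
Mrpl48: gggttttaaaaaCTTCCGGaaccaagatgc
These 30 bases lie at chr14:54426850-54426879, plus strand for Mrpl52, chr14:20393547-20393576, minus strand for Mrps16 and chr7:100583147-100583176, minus strand for Mrpl48 (RefSeq, GRCm38.p6). Mrpl52 (ENSMUSG00000010406, chr14:54426909-54429756, plus strand) was at 20.8, 20.1, 29.2 and 27.9 CPM in WT 1 to WT 4 and 15.9, 16.6, 20.2 and 21.1 CPM in KO 1 to KO 4. KO libraries were below the WT libraries of their set, but KO 3 and KO 4 were level with WT 1 and WT 2. The log2 difference was -0.57 (SE 0.09, edgeR adjusted p = 6.32e-05) in 5 libraries and -0.41 (SE 0.16, edgeR adjusted p = 0.423) over all 8, and the fit with the set as a term gave -0.50 (SE 0.09, edgeR adjusted p = 0.00915).

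Mrpl12, a stalk protein of the mitochondrial ribosome that also binds mitochondrial RNA polymerase (ENSMUSG00000039640, chr11:120484613-120489065, plus strand), was at 18.7, 18.7, 22.00 and 21.8 CPM in WT 1 to WT 4 and 17.1, 16.96, 16.6 and 16.2 CPM in KO 1 to KO 4. Every KO library was below every WT library. The log2 difference was -0.40 (SE 0.08, edgeR adjusted p = 4.80e-04) in 5 libraries, and the fit with the set as a term gave -0.30 (SE 0.07, edgeR adjusted p = 0.0245), a call that ended without WT 3, without WT 4 or with both summed. Mrpl15 was at 15.7, 15.4, 17.8 and 17.9 CPM in WT 1 to WT 4 and 13.7, 14.04, 15.2 and 14.2 CPM in KO 1 to KO 4. It too was lower in every KO library, with -0.30 (SE 0.09, edgeR adjusted p = 0.0104) in 5 libraries, a call that ended without WT 3, without WT 4, with both summed or with DESeq2. Mrpl30 was at 15.9, 17.2, 24.8 and 27.3 CPM in WT 1 to WT 4 and 16.2, 18.7, 18.8 and 21.01 CPM in KO 1 to KO 4. WT 3 and WT 4 were high and all other libraries low, with -0.42 (SE 0.08, edgeR adjusted p = 3.31e-04) in 5 libraries.

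Mrpl42, a large-subunit protein, was the one mitochondrial gene called higher. Mrpl42 (ENSMUSG00000062981, chr10:95480805-95501940, minus strand) was at 19.9, 20.4, 22.98 and 22.8 CPM in WT 1 to WT 4 and 21.1, 27.4, 29.1 and 27.9 CPM in KO 1 to KO 4. KO 2 to KO 4 were above all other libraries, while KO 1 was only just above WT 1 and WT 2. The log2 difference was 0.30 (SE 0.07, edgeR adjusted p = 0.00227) in 5 libraries, and over 8 libraries it was 0.29 (SE 0.11, edgeR adjusted p = 0.414). Without KO 1 the 8-library difference passed (edgeR adjusted p = 0.0288; over all alternatives 0.0288 to 1.00). Mrpl46 was at 5.15, 6.15, 6.57 and 6.58 CPM in WT 1 to WT 4 and 6.22, 4.499, 3.87 and 5.17 CPM in KO 1 to KO 4. Low values were found in KO 2 to KO 4 and not in KO 1, with -0.54 (SE 0.16, edgeR adjusted p = 0.00916) in 5 libraries and -0.31 (SE 0.18, edgeR adjusted p = 0.697) over 8, and the call in 5 libraries ended without WT 3 or without WT 4. Mrpl47, the mitochondrial gene with the lowest level per length, was at 4.61, 5.58, 4.05 and 4.89 CPM in WT 1 to WT 4 and 5.19, 3.87, 2.804 and 3.85 CPM in KO 1 to KO 4. Its genotypes overlapped over 8 libraries, with -0.28 (SE 0.22, edgeR adjusted p = 0.840). Mrpl58, which releases stalled mitochondrial ribosomes, was at 9.52, 9.62, 11.7 and 13.2 CPM in WT 1 to WT 4 and 10.3, 9.29, 10.4 and 9.79 CPM in KO 1 to KO 4. KO 2 to KO 4 were below WT 3 and WT 4, with -0.35 (SE 0.11, edgeR adjusted p = 0.0156), a call that ended without WT 4, with WT 3 and WT 4 summed or with DESeq2.

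Of the mitochondrial small subunit, Mrps16 was at 13.1, 10.5, 12.9 and 12.8 CPM in WT 1 to WT 4 and 10.3, 10.1, 9.74 and 10.3 CPM in KO 1 to KO 4. Every KO library was below every WT library, with -0.36 (SE 0.10, edgeR adjusted p = 0.00969) in 5 libraries and -0.28 (SE 0.09, edgeR adjusted p = 0.322) over 8. Mrps23 was at 14.5, 14.97, 17.6 and 17.9 CPM in WT 1 to WT 4 and 14.9, 14.2, 13.9 and 13.2 CPM in KO 1 to KO 4. The KO libraries of the 5 were low and KO 1 was level with WT 2, with -0.37 (SE 0.09, edgeR adjusted p = 0.00264). Mrps2 was at 12.4, 11.2, 14.1 and 13.02 CPM in WT 1 to WT 4 and 11.04, 11.5, 10.8 and 10.4 CPM in KO 1 to KO 4. KO libraries were the lower ones within each set, with -0.30 (SE 0.10, edgeR adjusted p = 0.0238) in 5 libraries. The calls on Mrps16 and Mrps2 ended without WT 3, without WT 4, with both summed or with DESeq2, that on Mrps2 also without KO 4, and that on Mrps23 without WT 4. Mrps12, a protein of the decoding center, was at 6.51, 7.69, 8.82 and 8.07 CPM in WT 1 to WT 4 and 7.604, 8.46, 8.21 and 9.13 CPM in KO 1 to KO 4. Its genotypes overlapped, and the difference of 0.03 (SE 0.12, edgeR adjusted p = 0.858) in 5 libraries was not called.

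The genotype difference itself differed between the library sets for 10 of the 159 genes (edgeR interaction of genotype and set). KO 1 is the only Tgfbr2_KO library of its set and was assumed to vary like the other libraries, so these p-values hold no measured spread for that arm. It was lower in the lung-rich set for 8 cytosolic genes, against 10.1% of all genes, and higher for 2 mitochondrial genes, against 8.84%; these shares, 9.88% and 2.56%, are at or below those of all genes. Whether called or not, the interaction was below 0 for 73 of 81 cytosolic genes, against 46.8% of all genes. It was above 0 for 60 of 78 mitochondrial genes, against 53.2% of all genes. The medians were -0.12 for cytosolic, 0.16 for mitochondrial and 0.03 for all tested genes. Among the cytosolic genes called were Rplp1, Rps28, Rps29, Rpl35a, Rps4x and Rpl10a. Apart from Rplp1 and Rps4x they were chosen after their values were seen. Rplp1 had the largest of these 8 differences, with -0.33 (SE 0.07, edgeR adjusted p = 0.00759). Mrpl38 (ENSMUSG00000020775, chr11:116131817-116138868, minus strand), also chosen after its values were seen, was at 11.9, 12.6, 15.1 and 14.5 CPM in WT 1 to WT 4 and 13.9, 10.2, 9.69 and 11.3 CPM in KO 1 to KO 4. KO 1 was above WT 1 and WT 2, while KO 2 to KO 4 were below WT 3 and WT 4, and the interaction was 0.68 (SE 0.17, edgeR adjusted p = 0.0174). Mrps31, chosen in the same way, was at 5.26, 5.49, 5.74 and 5.74 CPM in WT 1 to WT 4 and 7.74, 4.71, 4.43 and 4.89 CPM in KO 1 to KO 4. KO 1 was the highest library and the other KO libraries were the lowest, with an interaction of 0.82 (SE 0.23, edgeR adjusted p = 0.0294). The number of cytosolic genes was 24 without WT 1, 19 without WT 2, 2 without WT 3, and 5 without WT 4 or without KO 4. That of mitochondrial genes was 0 without WT 3 or without WT 4, and 1 without KO 2, KO 3 or KO 4, each left out alone.

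**Figure D5:**
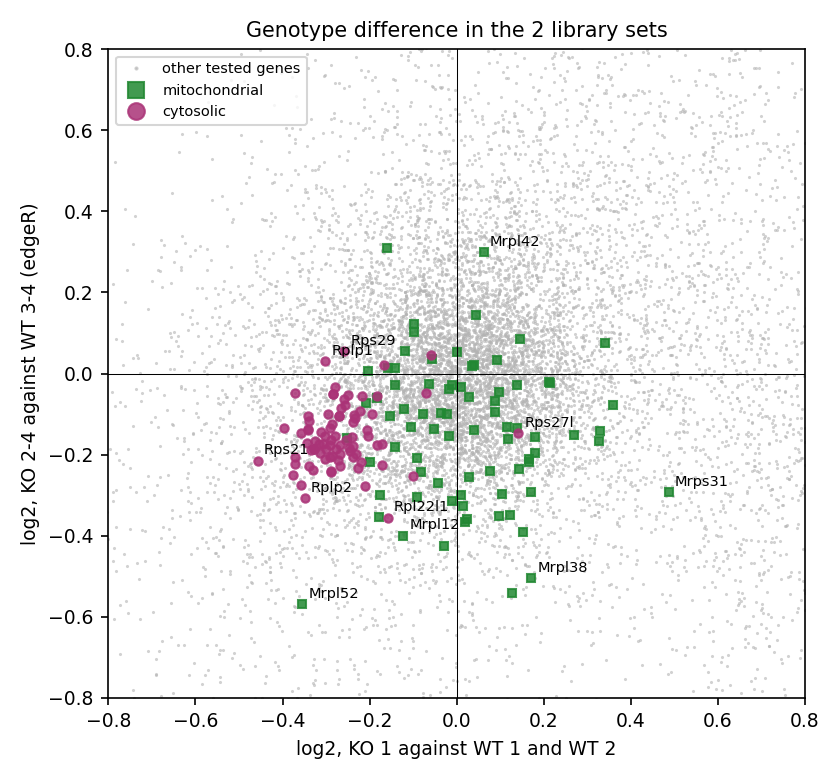
Log2 difference between Tgfbr2_KO and WT in 5 libraries (y axis, edgeR) against that of KO 1 to WT 1 and WT 2 (x axis, log2(CPM + 0.5)), with 1 point per tested gene; values beyond the axes are not drawn. Cytosolic genes form a cluster at negative values on both axes, with medians of -0.28 and -0.17, and mitochondrial genes spread to both sides of 0 on the x axis.

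Other genes of ribosome production were taken from lists, and their calls are from the fit with the set as a term (7.89% of all genes lower, 8.59% higher). Of 19 tested elongation factors and other messages with a 5′ pyrimidine tract, 12 were called lower and 0 higher, with a median log2 difference of -0.19, and in 5 libraries 16 were called lower. Eef1g, a subunit of elongation factor 1, was at 251, 253, 337 and 339 CPM in WT 1 to WT 4 and 220.1, 278, 271 and 279.5 CPM in KO 1 to KO 4. The KO libraries were lower within each set, with -0.26 (SE 0.04, edgeR adjusted p = 0.00726). Naca, which binds nascent chains at the ribosome, had -0.24 (SE 0.04, edgeR adjusted p = 0.00858), and Eef1b2, another elongation factor 1 subunit, had -0.27 (SE 0.05, edgeR adjusted p = 0.00861). Of 45 ribosome biogenesis genes, 10 were called lower and 1 higher, with a median of -0.12. Fbl, the methyltransferase of ribosomal RNA, was at 50.5, 48.8, 71.4 and 72.9 CPM in WT 1 to WT 4 and 39.2, 61.9, 61.02 and 59.6 CPM in KO 1 to KO 4. Its KO libraries were the lower ones in each set, with -0.28 (SE 0.04, edgeR adjusted p = 0.00491). Npm1, a nucleolar chaperone, had -0.29 (SE 0.05, edgeR adjusted p = 0.00838) and Nop56, a partner of Fbl, had -0.25 (SE 0.05, edgeR adjusted p = 0.0129). For RNA polymerase I and its factors, which make the large ribosomal RNA, 2 of 14 were called lower (Taf1d, -0.24 (SE 0.05, edgeR adjusted p = 0.0116), and Polr1d, -0.19 (SE 0.04, edgeR adjusted p = 0.0206)) and 0 higher. The calls on Naca, Eef1b2, Npm1 and Nop56 ended without WT 4, that on Taf1d without WT 3, and that on Polr1d without WT 3, without WT 4 or without KO 4.

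Of 27 initiation factors, 3 were called lower (Eif3i, Eif3m and Eif2s1) and 0 higher; the call on Eif3i ended without WT 4, that on Eif3m without WT 3, and that on Eif2s1 under 10 of 13 alternatives, among them the fit without any 1 library. Of 30 genes of mTORC1 and Myc control, 3 were lower and 2 higher, with a median of 0.01. Mycl, which encodes the transcription factor L-Myc, was at 6.51, 5.53, 9.95 and 10.4 CPM in WT 1 to WT 4 and 2.84, 4.75, 5.66 and 4.78 CPM in KO 1 to KO 4. Each KO library was below both WT libraries of its set, with -1.03 (SE 0.12, edgeR adjusted p = 0.00123). Rheb, the GTPase that activates mTORC1, had -0.20 (SE 0.04, edgeR adjusted p = 0.0130). Mxd4, which competes with Myc for its partner Max, had 0.28 (SE 0.04, edgeR adjusted p = 0.00490). Both calls ended without WT 3 or without WT 4. Named after their values were seen, Mxi1 was also called lower, with -0.39 (SE 0.09, edgeR adjusted p = 0.0220), and Tsc2 higher, with 0.25 (SE 0.05, edgeR adjusted p = 0.0174). In 5 libraries 9 genes of this list were called higher and 4 lower, against 19.7% and 18.7% of all genes. Myc was higher there (0.23, edgeR adjusted p = 0.0113) but was not called with the set as a term (-0.10, edgeR adjusted p = 0.753). Fau, which encodes a ribosomal protein as a fusion and falls outside the symbol rule, had -0.14 (SE 0.06, edgeR adjusted p = 0.136) and did not pass.

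Around the mitochondrial ribosome, 0 of 5 tested subunits with other symbols were called in the same fit, 1 of 13 mitochondrial translation factors was called lower and 1 higher, and of 22 assembly factors 2 were lower and 1 higher. Tufm, the mitochondrial elongation factor Tu, was at 25.02, 23.1, 35.2 and 33.1 CPM in WT 1 to WT 4 and 22.4, 26.3, 24.98 and 26.7 CPM in KO 1 to KO 4. WT 3 and WT 4 were the highest libraries, with -0.29 (SE 0.07, edgeR adjusted p = 0.0320). Mrrf, the recycling factor, had 0.43 (SE 0.10, edgeR adjusted p = 0.0243). The calls on Tufm and Mrrf each ended without WT 3, KO 3 or KO 4, that on Tufm also without WT 4 and that on Mrrf without KO 1. Mrm1 and Mrm2, which both methylate the large mitochondrial ribosomal RNA, were called in opposite directions. Mrm1 was at 7.81, 9.003, 11.4 and 11.1 CPM in WT 1 to WT 4 and 6.22, 7.499, 7.24 and 7.09 CPM in KO 1 to KO 4. It was lower in every KO library than in every WT library, with -0.56 (SE 0.09, edgeR adjusted p = 0.00657). Mrm2 was at 3.96, 3.21, 2.0 and 2.08 CPM in WT 1 to WT 4 and 4.79, 9.25, 8.41 and 8.19 CPM in KO 1 to KO 4. It was higher in every KO library, with 1.48 (SE 0.32, edgeR adjusted p = 0.0176). The call on Mrm2 ended without WT 3, WT 4, KO 3 or KO 4, each left out alone; in 5 libraries its difference was 2.07 (edgeR adjusted p = 4.16e-09).

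Promoters from RefSeq (GRCm38.p6, 250 bases before to 50 after each start) could be matched for 64 of 84 cytosolic and 69 of 78 mitochondrial genes. A stretch of at least 5 pyrimidines that opens with C within 1 base of the start, also inside a longer run, was found in 29.7% of the cytosolic genes, 7.25% of the mitochondrial genes, 8.63% of the tested genes and 7.51% of all genes with a promoter. Within 10 bases the shares were 60.9%, 44.9%, 37.1% and 34.4%. The motif CCGGAAG, searched on both strands in the whole window, was in 40.6% of the cytosolic, 37.7% of the mitochondrial, 19.9% of the tested and 9.93% of all genes. AAGATGGC, a YY1-type motif, was in 9.38%, 17.4%, 5.19% and 3.19%, and TATAAA was in 10.9%, 7.25%, 8.75% and 15.7%. A match is a description of the letters and not a site of binding. The motif stretches of Rps6 and Rps21, cytosolic genes that were called lower in 5 libraries, were as follows, with the motif in capitals.
Rps6: gttaatctacgcCCGGAAGtaacgcccctc
Rps21: gctttctttgcaCCGGAAGcggaagttaaa
They lie at chr4:86857441-86857470, minus strand for Rps6 and chr2:180257279-180257308, plus strand for Rps21.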

How the data were processed

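The authors deposited 1 merged table of salmon's estimated counts, not scaled for library size, per the file headers and file name. GRCm38 and DESeq2 1.40.1 are named in the submitters' processing notes. No source used here gives the salmon version, annotation, strand setting or filters. Libraries were made with a stranded kit, per the labels' protocols. Where reads are divided between near-identical transcripts the counts are fractional: values were whole (within 5e-04) in all 8 libraries for 12.3% of the tested cytosolic, 42.3% of the mitochondrial and 34.3% of all tested genes.

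After rounding, counts were fitted with edgeR 4.0.16 under R 4.3.3 (filterByExpr with minimum count 10 and minimum total 15, TMM, robust quasi-likelihood F-test, Benjamini-Hochberg adjustment over all tested genes, threshold 0.05). Errors of log2 differences are standard errors (SE), and CPM are TMM-scaled. Alternatives used DESeq2 1.42.0, limma 3.58.1, other scalings and filters, and left-out libraries. Fits without the interaction were run on simulated data, with genotype changes larger than the median differences of both classes. The simulation covered neither the interaction nor changes as small as these medians. A floor of 3 counts covers counting error only.

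Members and lists were chosen with earlier results of these data known. Named genes were members past the threshold over 8 libraries, up to 8 per class and direction by adjusted p with the library set as a term, the 5 per class with the largest 8-library difference, 26 fixed members, up to 3 genes per list, and the extremes of level per length. Other members named by call, order or difference between sets were chosen after their values were seen. Values of some single genes are not reported here. Gene coordinates and lengths are from GENCODE M21 (GRCm38).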

Additional observations from a re-analysis of the deposited data

Results flagged for a closer look

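Of 70 groups of 4 libraries examined (both shares and the CPM of members named in the text, per genotype), 14 had 1 library far from the other 3, by the gap to the nearest library relative to the range; chance sets a library apart in about 1 in 20 groups. In 13 of the 14 this library was KO 1. It was lowest in Tgfbr2_KO for the cytosolic share (2.63%) and for Rpl22 (145 CPM), Rplp0 (648 CPM), Rplp1 (405 CPM), Rpl3 (534 CPM), Rps6 (430.4 CPM), Rpsa (585 CPM), Rpl10 (647 CPM), Rps9 (501 CPM), Rps27 (234 CPM), Rpl36al (58.4 CPM) and Rps15 (319 CPM). It was highest for Mrps31 (7.74 CPM). The other case was Mrps16 in WT, where WT 2 was lowest (10.5 CPM). The genes share libraries, so these are not independent cases. KO 1 is the only lung-rich library of Tgfbr2_KO, whereas WT 1 and WT 2 are both lung-rich. A difference between the library sets can therefore set KO 1 apart by this rule, but not a single WT library. The rate of 1 in 20 does not cover such a difference.

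The genotype difference in the lung-rich set minus that in the other 5 libraries passed the edgeR interaction test for 10 members, of which 8 are given. On the log2 scale it was -0.33 for Rplp1, -0.32 for Rps28, -0.31 for Rps29, -0.26 for Rpl35a, -0.23 for Rps4x and -0.22 for Rpl10a. It was 0.68 for Mrpl38 and 0.82 for Mrps31. Over all tested members, called or not, the median was -0.12 for cytosolic and 0.16 for mitochondrial genes, against 0.03 over all genes. KO 1 is the only Tgfbr2_KO library of its set, so the set and this library cannot be told apart. In both classes the share of members called was at or below that of all genes.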

How the results depend on the processing

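Over 8 libraries, cytosolic and mitochondrial counts of called genes stayed at 0 under the other scalings, filters, tools and left-out libraries tried, apart from 1 mitochondrial gene called higher without KO 1 (leave-out range 0 to 1). With the library set as a term, cytosolic genes called lower ranged from 6 to 57 when 1 library was left out and were 9 with WT 3 and WT 4 summed, against 54. Mitochondrial genes called lower ranged from 1 to 11 and were 1 with WT 3 and WT 4 summed, and those called higher ranged from 0 to 1 and were 1 with total counts alone. In 5 libraries, cytosolic genes called lower ranged from 50 to 67 and those called higher from 0 to 1; mitochondrial genes called lower ranged from 5 to 20, were 8 with DESeq2 and 6 with WT 3 and WT 4 summed, and those called higher ranged from 1 to 2. Genes with a genotype difference between the sets ranged from 2 to 24 (cytosolic) and from 0 to 3 (mitochondrial), and 5 cytosolic genes passed with total counts alone. The cause was not tested; fits that leave out a library have fewer samples. The number of genes that differ between the sets changed by less than 1.5 times. Chosen after seeing the data were the sum of WT 3 and WT 4 in 5 libraries, all settings for differences between sets, and all settings for single genes except 3 scalings over 8 libraries. Reversed were Rpl7l1 in 5 libraries (-0.062 without WT 4, with leave-out values from -0.062 to 0.139) and Rps15 in 5 libraries (-0.0076 without WT 3, with leave-out values from -0.0076 to 0.048). Of the other values of single genes, 1016 kept direction and side of the threshold, 158 no longer passed and 2 newly passed.

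Over 8 libraries the summed levels in KO were at 95.0% (cytosolic) and 97.3% (mitochondrial) of WT on TMM-scaled CPM, but the mitochondrial sum of KO 1 went from 104% to 100.4% of that of WT 1 and WT 2. Over all genes in 8 libraries, edgeR called 25 higher and 13 lower, DESeq2 called 347 and 180, total counts alone gave 53 and 28, and fits without KO 1 gave 619 and 241, whereas leaving out any other library gave 0. With the set as a term, the 1095 and 1006 calls became 307 and 488 without WT 3 and 2047 and 1946 without KO 1. No fit of the difference between sets was possible without KO 1. The replicate number as a block gave 0 called genes of either class and 0 of all genes. Deviations of same-numbered libraries had correlations of 0.87, -0.79, 0.69 and 0.75. The negative value is that of WT 2 and KO 2, which lie in different library sets, while the libraries of each other pair share a set. The correlations followed the sets, so they cannot decide whether the numbers pair the libraries. Mitochondrial genes had a median of 13.2 CPM and cytosolic genes of 378 CPM, which limits the precision of small differences in the former.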

Other observations

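Tested copies with near-identical coding sequences were 5 in number and were chosen after their values were seen. In the 5 libraries poor in lung transcripts, 4 had a log2 difference above 0 while their source genes were below 0. Of the 4, 1 was called. Of all genes, 49.6% were above 0 and 19.7% were called higher. The number called is near its background, and the number above 0, among so few chosen copies, was not tested against its own. Rpl9-ps6, which shares 99.8% of coding bases with Rpl9, was at 7.16, 7.42, 8.001 and 8.86 CPM in WT 1 to WT 4 and 5.82, 9.92, 11.98 and 13.1 CPM in KO 1 to KO 4. The highest libraries were KO 2 to KO 4 and the lowest was KO 1, with a log2 difference of 0.46 (edgeR adjusted p = 0.00804) in 5 libraries, whereas Rpl9 had -0.17 (SE 0.03, edgeR adjusted p = 1.81e-04). Rpl10-ps3, with a coding sequence identical to that of Rpl10, was at 15.97, 17.2, 20.7 and 23.9 CPM in WT 1 to WT 4 and 13.5, 24.2, 25.4 and 27.1 CPM in KO 1 to KO 4. Both WT 3 and WT 4 lay below KO 2 to KO 4, with 0.19 (edgeR adjusted p = 0.0801), against -0.17 (SE 0.03, edgeR adjusted p = 4.41e-05) for Rpl10. Rps12-ps3, identical to Rps12 in its coding sequence, was at 6.68, 5.93, 8.05 and 7.62 CPM in WT 1 to WT 4 and 4.93, 9.37, 8.77 and 11.1 CPM in KO 1 to KO 4. It had the same order, with 0.32 (edgeR adjusted p = 0.0568), against -0.14 (SE 0.03, edgeR adjusted p = 0.00263) for Rps12. The counts of these copies and their source genes were fractional in all 8 libraries, so their levels are uncertain, and how salmon assigned the shared reads was not tested. The other 2 copies were Rpl36a-ps1, with 0.34 (edgeR adjusted p = 0.508) at 0.529 to 1.32 CPM, and Rps27rt, with -0.06 (edgeR adjusted p = 0.521); Rps27rt and Rps27 were both below 0.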
